A study of Mus musculus with 2 samples.

Results

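Conventional dendritic cells were taken from single-cell RNA libraries of Lewis lung carcinoma (LLC) tumors by a rule on transcripts, which found 246 members among 40638 barcodes. A barcode stands for one droplet, ideally one cell, and a UMI is one counted RNA molecule. A member had at least 1000 UMIs, under 10% of them from mitochondrial genes, and at least 4000 CPM (UMIs of a gene scaled to 1000000 UMIs per barcode) of the MHC class II genes H2-Aa, H2-Ab1 and H2-Eb1 summed. It also had under 500 CPM of the macrophage genes C1qa, C1qb and C1qc, at least 1 UMI of the dendritic genes Flt3, Zbtb46, Ccr7, Xcr1, Clec9a and Cd209a, and under 475 CPM of the cancer cell genes Rhox5, Krt8, Krt18 and Hmga2. The genes of this rule describe how the cells were chosen. Levels are given below for some of them, as a description.

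The sGC Ctr library came from Gucy1b1 flox/flox mice and the sGC ∆PC library from mice that also carried Cspg4-CreERT2 (the label there spells the gene Gucyc1b1), both on the C57BL/6 background. Gucy1b1 encodes the beta1 subunit of soluble guanylate cyclase (sGC), the receptor for nitric oxide, and Cspg4 encodes NG2, whose promoter drove the tamoxifen-inducible Cre that recombines the floxed gene in pericytes. The study's methods give both genotypes tamoxifen in 5 doses from an age of 4 weeks, LLC cells, a mouse lung cancer line, under the skin at 8 weeks, and dissection 2 weeks later, and each library held cells pooled from 3 tumors. With 1 library per group, the genotype and the library cannot be told apart, no test was made, and all intervals are 95% intervals that cover counting error only.

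Dendritic cells take up material in tissue, load peptides onto MHC class I and class II molecules and carry them to lymph nodes, where they prime T cells. Conventional dendritic cells depend on the receptor FLT3 and express the factor ZBTB46. The cDC1 type, marked by XCR1 and CLEC9A, is known for cross-presentation to CD8 T cells, and the cDC2 type, marked in tissue by lectins such as CD209A, CD301b (Mgl2) and CLEC10A, mainly for presentation to CD4 T cells. Both types can mature into a state with CCR7, the receptor that guides them to lymph nodes. CD74, the invariant chain, accompanies class II molecules to the compartment where peptides are loaded, with the help of H2-DM and under the restraint of H2-O. The study's methods describe clusters annotated by hand from marker genes and list Cd74 for the natural killer cells. The members were therefore also examined for transcripts of natural killer lymphocytes. Whether they fall in that cluster was not tested, since the study's cluster labels were not used.

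The promoters of the class II genes are shown because both the rule and several of the genes that stood highest in the members belong to this family. Class II promoters are known for an X box and a Y box, which hold the platform on which the coactivator CIITA acts. RefSeq promoter entries (assembly GRCm38.p6, which has the coordinates of mm10) were found for 9 of 13 symbols looked up, among them 7 of 8 class II genes, and H2-Ab1, Ciita, Klrd1 and Ccr7 are named only. The Y box was searched as CCAAT on both strands, so that ATTGG is a hit too, in windows of 250 bases before to 50 bases after each start site. The 120 bases before the start site are printed 5′ to 3′ on the strand of the gene, with every Y box in capitals.
H2-Aa, chr17:34287824-34287943, minus strand: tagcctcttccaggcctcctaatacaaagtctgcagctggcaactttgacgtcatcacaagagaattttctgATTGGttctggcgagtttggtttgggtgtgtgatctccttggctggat
H2-Eb1, chr17:34305747-34305866, plus strand: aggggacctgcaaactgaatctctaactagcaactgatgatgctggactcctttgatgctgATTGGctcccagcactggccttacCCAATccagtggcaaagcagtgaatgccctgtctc
H2-DMb1, chr17:34153071-34153190, plus strand: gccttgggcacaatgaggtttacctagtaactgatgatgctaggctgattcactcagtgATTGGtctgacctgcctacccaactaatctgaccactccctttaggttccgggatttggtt
H2-DMb2, chr17:34145129-34145248, plus strand: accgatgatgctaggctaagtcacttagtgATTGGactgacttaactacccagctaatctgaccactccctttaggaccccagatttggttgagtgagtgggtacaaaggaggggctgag
H2-Oa, chr17:34092259-34092378, plus strand: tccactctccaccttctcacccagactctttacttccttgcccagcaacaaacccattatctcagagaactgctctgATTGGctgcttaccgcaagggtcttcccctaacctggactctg
H2-Ob, chr17:34238785-34238904, plus strand: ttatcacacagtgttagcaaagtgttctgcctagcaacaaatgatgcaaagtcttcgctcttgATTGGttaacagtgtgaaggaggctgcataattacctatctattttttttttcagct
The 6 windows printed are those with a Y box within 120 bases before the start site, and in H2-Eb1 there are 2. H2-DMa, the other class II gene with an entry, has 2 windows that are not printed. Of these, 1 holds no Y box and the other holds 1 at 198 bases before the start site. Outside the class II genes, the window of Flt3 holds no Y box and that of Xcr1 holds 1, at 190 bases before the start site. The first base of the Y box nearest the 5′ end lies 43 bases before the start site in H2-Oa, 48 in H2-Aa, 57 in H2-Ob, 59 in H2-Eb1, 61 in H2-DMb1 and 90 in H2-DMb2. Over all 32851 promoter entries 37.4% held these letters, so they are common, and a match describes the sequence and is not a binding site.

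The sGC Ctr library held 15007 barcodes with 487859656 UMIs and the sGC ∆PC library 25631 barcodes with 436352742 UMIs. The limits on UMIs and mitochondrial genes left 12281 and 21082 barcodes, with medians of 35606 and 9417.5 UMIs. The members were much closer in depth, with medians of 8582.5 UMIs in sGC Ctr and 8491 UMIs in sGC ∆PC, and they summed to 1204668 and 1078574 UMIs. The median member had 2410.5 and 2502 genes and 2.82% and 3.53% mitochondrial UMIs. The 2 libraries shared 131 barcode sequences, 82 of them among barcodes that passed both limits, and none between their members. Gucy1b1 had 0 UMIs in the members of both libraries, and over all quality-passed barcodes it had 77 UMIs in sGC Ctr and 39 UMIs in sGC ∆PC, so the members themselves do not check the genotype labels.

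The class II minimum left 636 sGC Ctr and 1429 sGC ∆PC barcodes, of which 304 and 439 were under the C1q limit. At least 1 UMI of a dendritic gene was present in 142 and 174 of these. The last limit, on cancer cell genes, removed 12 of the 142 sGC Ctr barcodes (8.45%) and 58 of the 174 sGC ∆PC barcodes (33.3%), which left 130 and 116 members. Values at the limits lay close together. In sGC Ctr the lowest class II level inside was 4301 CPM and the highest outside 3997 CPM, and in sGC ∆PC they were 4294 and 3969 CPM. The highest C1q level inside was 462 CPM in sGC Ctr and 484 CPM in sGC ∆PC, with the lowest outside at 517 and 506 CPM. For the cancer genes the values inside reached 443 and 460 CPM, and those outside began at 514 and 483 CPM. A single dendritic UMI carried 20 of the 130 sGC Ctr members and 31 of the 116 sGC ∆PC members, and 153 and 178 further barcodes missed the rule only for want of that UMI.

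**Figure D1:**
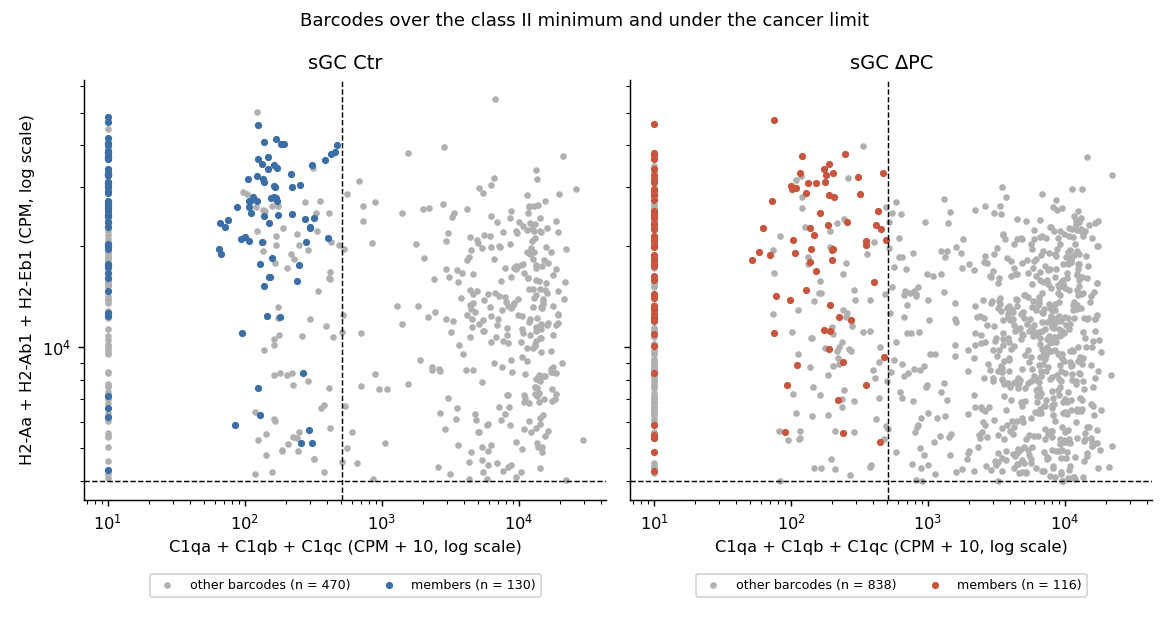
Each point is a barcode of the sGC Ctr (left) or sGC ∆PC (right) library with at least 4000 CPM of class II genes and under 475 CPM of cancer cell genes. The horizontal axis gives C1qa, C1qb and C1qc together (CPM + 10, log scale) and the vertical axis the 3 class II genes (CPM, log scale), dashed lines mark the limits, and the 130 and 116 colored members lie left of the C1q limit, while a second cloud with higher C1q lies to its right.

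Members made up 1.06% (0.885 to 1.26%, exact Clopper-Pearson interval) of the quality-passed barcodes in sGC Ctr, 130 of 12281, and 0.550% (0.455 to 0.660%) in sGC ∆PC, 116 of 21082, a log2 ratio of -0.94. Among barcodes with a UMI of Ptprc, the pan-leukocyte gene CD45, the shares were 2.35% (1.94 to 2.81%) of 4857 and 1.40% (1.14 to 1.70%) of 7130, a log2 ratio of -0.74. Among barcodes under the cancer gene limit they were 3.30% (2.76 to 3.90%) of 3945 and 2.41% (1.99 to 2.88%) of 4823, a log2 ratio of -0.45. The share was lower in sGC ∆PC with each denominator, and the difference shrank as cancer cells left the denominator. With the limit on cancer genes at 1000 CPM in place of 475 CPM the members were 135 and 146, and with a limit of 200 CPM 96 and 87. Since the limit removed a different part of the 2 libraries, the part of cancer cell RNA in this difference cannot be told apart from that of cell number, and was not tested.

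The genes that stood highest in the members over all other quality-passed barcodes, by the lower of the 2 libraries, included genes of antigen presentation, dendritic cell chemokines and lectin-like receptors. The comparison follows from the choice of cells and is given as a description. After Cd209a, which is in the rule, came Klrd1, H2-DMb2, Klrb1b, H2-Oa, Ccl22, Timd4, Ccl17, P2ry10, Il12b, Ciita, Gpr171, Klrk1, Jaml and Mgl2. H2-DMb2, a chain of the H2-DM peptide exchange factor, stood at 257 CPM in sGC Ctr members and 236 CPM in sGC ∆PC members, against 0.732 and 1.09 CPM in the other barcodes. H2-Oa, a chain of the H2-O modulator, was at 169 and 134 CPM against 0.305 and 0.554 CPM. Ciita, the coactivator of class II transcription, was at 319 and 345 CPM against 1.90 and 3.65 CPM. Ccl22 and Ccl17, both ligands of CCR4, were at 152 and 251 CPM and at 193 and 231 CPM, and stood below 2 CPM in the other barcodes of either library. Il12b, the p40 chain of interleukin-12 and interleukin-23, was at 134 and 89.9 CPM against 0.231 and 0.188 CPM. These genes were high in the members of both libraries.

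Against macrophages the members were set apart by more than C1q. In the 317 sGC Ctr and 660 sGC ∆PC barcodes with the same class II minimum and cancer limit but C1q at or over its limit, Lyz2, the lysozyme of myeloid cells, was at 13616 and 13839 CPM, and in the members at 819 and 627 CPM. Apoe, the apolipoprotein of tissue macrophages, was at 4331 and 2786 CPM there and at 57.3 and 47.3 CPM in members. Mertk, a receptor for dying cells, had 0 UMIs in sGC Ctr members and 1.85 CPM in sGC ∆PC members, against 21.5 and 22.0 CPM. Flt3 ran the other way, at 83.8 and 91.8 CPM in members and 2.33 and 1.67 CPM in the C1q-high barcodes. Flt3 is part of the rule, which fixes its direction. The list of 10 macrophage markers summed to 1387 and 1203 CPM in members, and Lyz2 was its most abundant gene.

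Cd74 was high in the members and in macrophages, and low in the natural killer lymphocyte and cancer marker barcodes. It stood at 17178 CPM in sGC Ctr members and 13619 CPM in sGC ∆PC members, with at least 1 UMI in all 130 and all 116. In the C1q-high class II barcodes it was at 11117 and 9804 CPM. Barcodes with natural killer lymphocyte transcripts were taken for comparison as those with at least 2 UMIs of Ncr1, Klrb1c, Klre1 and Eomes, under the class II minimum and under the cancer limit, so these 4 genes are high and class II is low there by choice. This gave 18 in sGC Ctr and 17 in sGC ∆PC with medians of 3793.5 and 5804 UMIs. Other markers were present there too, with the T cell list at 1405 and 4446 CPM and the endothelial list at 1646 and 82.7 CPM, against 4817 and 5062 CPM of the natural killer list, and 1 sGC Ctr barcode held 34369 of the set's 108148 UMIs. In these Cd74 was at 46.2 and 55.1 CPM, from 5 and 6 UMIs, and in barcodes with cancer cell markers at 20.5 and 57.6 CPM. The latter were chosen with cancer genes at or over the limit, and under the class II minimum and the C1q limit. Whether cancer cells themselves express Cd74 was not tested. Thinned to 1000 UMIs per barcode, 99.2% of sGC Ctr members and 100% of sGC ∆PC members had a Cd74 UMI. The shares were 5.56% (1 of 18) and 11.8% (2 of 17) in the natural killer lymphocyte barcodes, and 2.18% and 7.75% in the cancer marker barcodes.

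Most transcripts on the natural killer list were absent or nearly absent from the members. Nkg7, a protein of cytotoxic granules, was at 934 and 1304 CPM in the natural killer lymphocyte barcodes, at 0 UMIs in the 130 sGC Ctr members, and at 9 UMIs in 2 of the 116 sGC ∆PC members. Gzma, granzyme A, was at 962 and 689 CPM there, and in members at 0 UMIs in sGC Ctr and 13 UMIs in 2 members of sGC ∆PC. Prf1 (perforin), Eomes and Klra8 had 0 UMIs in the members of both libraries. Ncr1, the receptor NKp46, and Klrb1c, the NK1.1 antigen, had 0 UMIs in sGC Ctr, and 5 and 4 UMIs in sGC ∆PC, each in 1 member. For a count of 0 in 130 members, each thinned to 1000 UMIs, the floor of 3 counts is a share with a UMI of 2.31% (3 of 130). The exact interval for that share reaches 2.80%. Neither value limits the share of cells that express a gene. Klre1, a lectin-like receptor of these cells, had 19 UMIs in 13 sGC Ctr members and 12 UMIs in 4 sGC ∆PC members, or 15.8 and 11.1 CPM against 379 and 322 CPM in the natural killer lymphocyte barcodes. A single sGC ∆PC member held 39 of the 44 UMIs that the list had outside Klrd1, Klrk1 and Klre1.

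Klrd1 and Klrk1, by contrast, were abundant in the members. Klrd1 encodes CD94 and Klrk1 the activating receptor NKG2D, and both are best known from natural killer cells. Klrd1 was at 419 CPM (383 to 457, exact Poisson interval) in sGC Ctr members and 351 CPM (317 to 389) in sGC ∆PC members, with UMIs in 102 of 130 and 75 of 116. At 1000 UMIs per barcode the shares with a Klrd1 UMI were 36.9% and 23.3%, against 1.26% and 1.52% in C1q-high class II barcodes and 0.0259% and 0.208% in cancer marker barcodes. Klrk1 was at 139 and 156 CPM in members, in 66 and 65 of them, and at 12.5 and 11.5 CPM in the C1q-high barcodes. In the natural killer lymphocyte barcodes Klrd1 was at 647 and 634 CPM. Klrd1 was found in each class of member described below, at 217 and 241 CPM in cDC1, 491 and 391 CPM in cDC2 and 478 and 403 CPM in mature cells. The 12 genes of the natural killer list summed to 574 and 559 CPM in members, with 8 of the 12 at 0 UMIs in sGC Ctr and 3 of the 12 at 0 in sGC ∆PC, and Klrd1 was the most abundant.

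**Figure D2:**
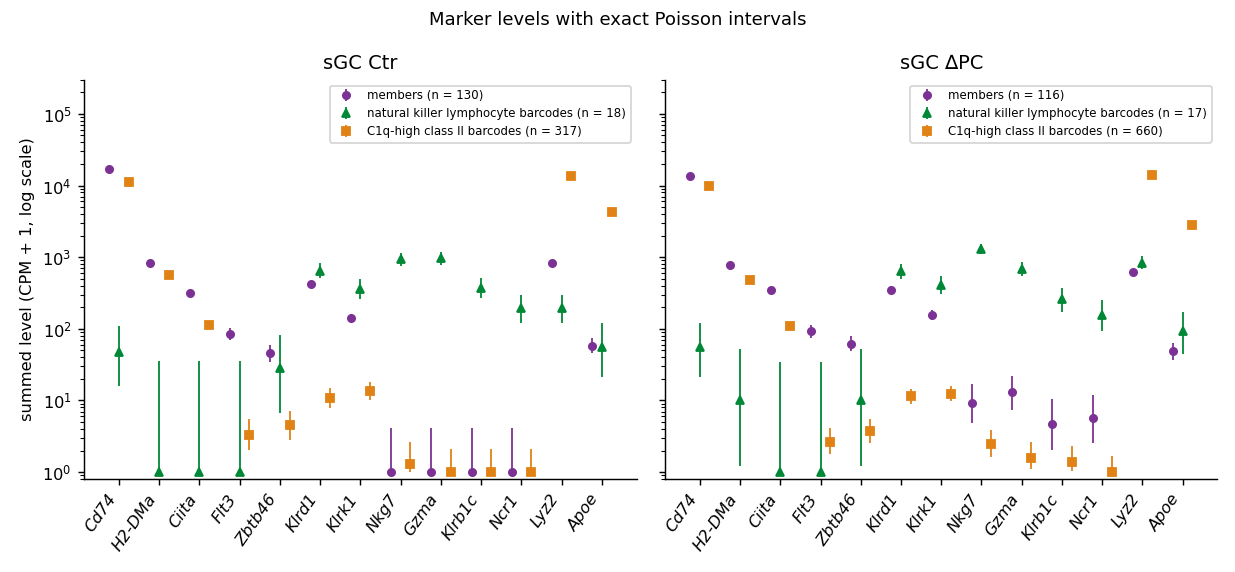
Summed levels (CPM + 1, log scale) of 13 marker genes in the sGC Ctr (left) and sGC ∆PC (right) library, for members (circles), natural killer lymphocyte barcodes (triangles) and C1q-high class II barcodes (squares), with exact Poisson intervals. Cd74 is high in members and in C1q-high barcodes, Klrd1 and Klrk1 are high in members and in natural killer lymphocyte barcodes, and Nkg7, Gzma, Klrb1c and Ncr1 are high in natural killer lymphocyte barcodes alone among the 3 sets.

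A few members carried transcripts of another cell type beside those of the rule. The mark was 10 or more UMIs of the T cell, B cell, natural killer, granulocyte, fibroblast, endothelial or plasmacytoid dendritic cell list. The natural killer list was taken without Klrd1, Klrk1 and Klre1, and the monocyte, macrophage and mast cell lists were not used. By it, 5 of the 130 sGC Ctr members and 10 of the 116 sGC ∆PC members were marked. Below, members said to carry another cell type's markers are those with this mark. In sGC Ctr 1 member had 2107 UMIs of the fibroblast list, of 2396 in the whole library's members, and in sGC ∆PC 1 member had 270 of the 364 UMIs of the granulocyte list. T cell markers summed to 21.6 and 37.1 CPM, with Cd8b1 the most abundant, and B cell markers to 55.6 and 119 CPM, with Ighm the most abundant. Endothelial markers were at 21.6 and 15.8 CPM, led by Pecam1, and those of mast cells and basophils at 1.66 and 0 CPM. Monocyte markers, led by Plac8, stood at 1406 CPM in sGC Ctr members and 1572 CPM in sGC ∆PC members. They were at 2160 and 2761 CPM in the C1q-high class II barcodes, and at 1189 and 1282 CPM in all quality-passed barcodes outside the members. After thinning, a Plac8 UMI was found in 29.2% and 30.2% of members, against 6.94% and 7.73% of C1q-high class II barcodes. For Flt3, a rule gene, these shares were 5.38% and 7.76% against 0.315% and 0.303%. Whether some members derive from monocytes was not tested. The list of plasmacytoid dendritic cells (pDC), which are not conventional dendritic cells, summed to 152 and 130 CPM, and 3 sGC Ctr and 2 sGC ∆PC members reached 10 UMIs of it. The counts of genes 2-fold apart are therefore given for all members and again for the 125 and 106 without such a mark, and so are some single genes and lists.

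Members were placed in marker classes by which of 4 lists (cDC1, cDC2, mature and pDC, with 8 genes each and 6 for pDC) had the most UMIs, with at least 2 UMIs and no tie. With all UMIs, 78 sGC Ctr members (60.0%, 51.0 to 68.5%) and 59 sGC ∆PC members (50.9%, 41.4 to 60.3%) were cDC2-like. The cDC1-like members were 23 (17.7%) and 21 (18.1%), and the mature ones 17 (13.1%) and 17 (14.7%). The pDC list led in 4 and 2 members, which go against the name conventional dendritic cells, and 8 (6.15%) and 17 (14.7%) had no class. The intervals of each named class overlapped between the libraries. The members without a class had medians of 7738.5 UMIs in sGC Ctr and 4731 UMIs in sGC ∆PC, below the 8539.5 and 8414 UMIs of cDC2-like members. The class was within 2 UMIs of another one in 22 and 28 members. The cDC2 list was also high in the C1q-high class II barcodes, at 706 and 617 CPM, against 1341 and 931 CPM in members. There the cDC1 list was at 86.2 and 74.2 CPM, against 447 CPM in members of either library. The mature list was at 116 and 93.8 CPM there, against 599 and 616 CPM in members.

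Thinned to 1000 UMIs, at which all members could be kept, 41 of 130 (31.5%, 23.7 to 40.3%) and 24 of 116 (20.7%, 13.7 to 29.2%) were cDC2-like, and 61 and 69 had no class. The cDC1-like share was 8.46% and 6.90% and the mature share 10.8% and 11.2%. Over 100 such random thinnings the number of cDC2-like members ran from 35 to 49 with a median of 43 in sGC Ctr, and from 18 to 35 with a median of 26 in sGC ∆PC. The cDC2-like share was thus lower in sGC ∆PC by either depth, with overlapping intervals. The share without a class was higher there by either depth, at 46.9% and 59.5% after thinning. With C1q under 1000 CPM the thinned cDC2-like shares were closer, at 30.4% and 27.1%. Over the 100 thinnings the cDC1-like members ran from 4 to 14 in sGC Ctr and from 3 to 14 in sGC ∆PC, and the mature ones from 11 to 20 and from 8 to 16. The direction of the cDC1-like difference turned with the limits, for example to 5.45% and 9.41% with at least 2 UMIs of dendritic genes, and the mature share was 12.5% and 8.05% with cancer genes under 200 CPM.

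**Figure D3:**
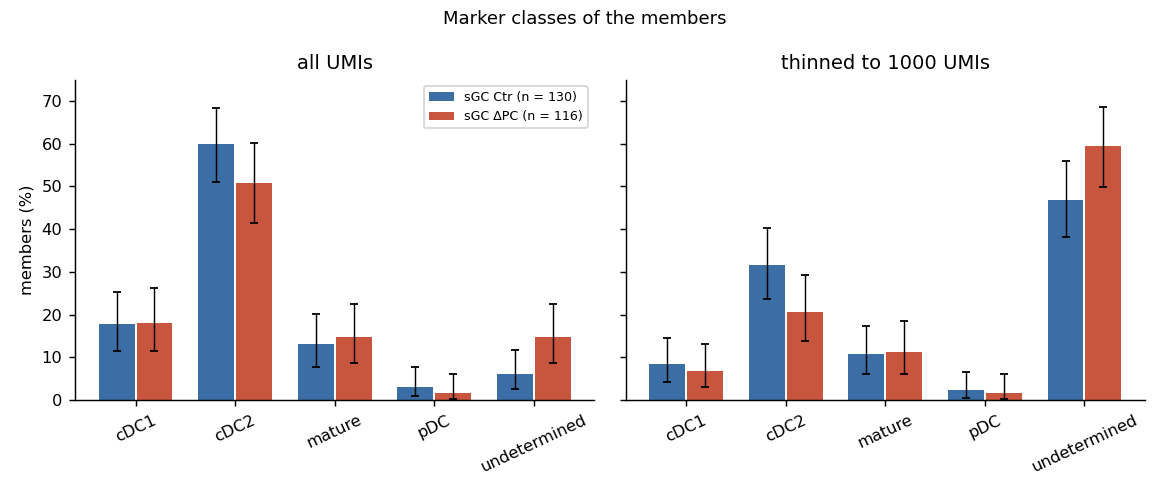
Shares of members (%) in each marker class for sGC Ctr (n = 130 members) and sGC ∆PC (n = 116 members), with all UMIs (left) and thinned to 1000 UMIs (right), with exact Clopper-Pearson intervals. The cDC2 bars stand at 60.0% and 50.9% with all UMIs and at 31.5% and 20.7% after thinning, and the intervals overlap in both panels.

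Genes that the classes did not use followed them in both libraries. In cDC1-like members Irf8, the factor that cDC1 need to develop, was at 1368 CPM in sGC Ctr and 1646 CPM in sGC ∆PC, against 249 and 192 CPM in the other members. Rab7b, a small GTPase of endosomal traffic, was at 227 and 218 CPM against 21.1 and 19.6 CPM, and Naaa, a lysosomal amidase, at 714 and 728 CPM against 120 and 201 CPM. In cDC2-like members Zeb2, a repressor active in myeloid cells, was at 270 and 374 CPM against 45.6 and 58.8 CPM, and Ccr2, the receptor for CCL2, at 411 and 393 CPM against 43.7 and 73.6 CPM. After thinning, a Ccr2 UMI was found in 43.5% of C1q-high class II barcodes in sGC Ctr and 33.3% in sGC ∆PC. Among all members these shares were lower, at 22.3% and 19.0%, so Ccr2 is not specific to dendritic cells here. Other leading genes of this class outside its list included Clec4a3, Ccl9, Clec4n, Ccr1 and Lilrb4a. Their levels in C1q-high barcodes are not given here. Mature members carried Il12b at 1208 and 849 CPM, against 7.43 CPM in other sGC Ctr members and 0 in other sGC ∆PC members. Samsn1 was at 1427 and 1120 CPM against 97.5 and 80.9 CPM in the same comparison, and Serpinb9, an inhibitor of granzyme B, at 871 and 770 CPM against 44.6 and 34.2 CPM. Fabp5, a fatty acid binding protein, was at 3929 CPM in mature sGC Ctr members and 1785 CPM in mature sGC ∆PC members, against 217 and 216 CPM in the others. These genes were picked by their excess and are a description of the classes.

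Between the libraries most genes of the members lay close to each other. Of 4955 genes whose UMIs in the 2 libraries summed to 50 or more, the median log2 ratio of sGC ∆PC over sGC Ctr was 0.02 and the middle 50% ran from -0.17 to 0.21. Of these genes 52% were higher in sGC ∆PC and 48% lower. At least 2-fold higher in sGC ∆PC were 38 genes (0.767%), and at least 2-fold lower were 41 (0.827%). Without each library's top member for the gene, 29 of the 38 and 19 of the 41 were still 2-fold apart. Without the members that carried another cell type's markers, 33 of 4628 genes (0.713%) were at least 2-fold higher and 18 (0.389%) lower. Of the original genes 31 and 19 were still 2-fold apart there, when counted without regard to the minimum of 50 UMIs.

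For all 12 genes that stood lowest in sGC ∆PC, the same sGC Ctr member, with fibroblast transcripts, held the most UMIs of any in that library. They were Cxcl14, Abi3bp, Mmp2, Col1a1, Col12a1, Cpxm1, Fbln2, Col1a2, Bgn, Sparc, Postn and Col5a1, all of which except the chemokine Cxcl14 encode proteins of the extracellular matrix or enzymes that act there. Col1a1, a chain of type I collagen, had 712 UMIs in sGC Ctr, 695 of them in 1 member, and 27 UMIs in sGC ∆PC, a log2 ratio of -4.54. Without each library's top member its ratio was 0.69. Cxcl14 had 70 UMIs in sGC Ctr, 65 of them in 1 member, and 0 in sGC ∆PC.

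Of the 12 genes that stood highest in sGC ∆PC, 5 had most of their UMIs there in 1 member. Cstdc4, a cystatin, had 1 UMI in sGC Ctr and 61 UMIs in sGC ∆PC, of which 59 in 1 member. Igkc, the kappa light chain of antibodies, had 8 and 213 UMIs, 132 of them in 1 member. S100a8 and S100a9, the subunits of calprotectin in neutrophils, had 108 and 216 UMIs in sGC ∆PC, 83 and 170 of them in 1 member. Slpi, a protease inhibitor, went from 12 to 38 UMIs, 20 of the 38 in 1 member, and its log2 ratio turned from 1.78 to -1.10 without the members that carried another cell type's markers. In the other genes of this set, Ccl3, Ccl4, Ifi202b, Cxcl10, Cxcr4, Pclaf and Plet1, no single sGC ∆PC member held more than 45.2% of the UMIs, the share of the top member for Cxcl10.

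The chemokines were the gene group with the highest median. All 12 listed chemokines had at least 50 UMIs, 9 were higher and 3 lower in sGC ∆PC, against 52% and 48% of all genes. The median log2 ratio was 0.76, and 4 were at least 2-fold higher, 1 of them (Ccl5) through 1 member, against 0.767% of all genes. Without the members that carried another cell type's markers, the median was 0.64 and 5 were 2-fold higher. The list summed to 1752 and 2333 CPM in members. Outside them it was higher in sGC ∆PC too, at 891 and 1232 CPM in all other barcodes and at 552 and 805 CPM in cancer marker barcodes. In the C1q-high class II barcodes it was at 4967 and 4788 CPM. Ccl3, a ligand of CCR1, had 26 UMIs (21.6 CPM) in 8 sGC Ctr members and 79 UMIs (73.2 CPM) in 25 sGC ∆PC members, a log2 ratio of 1.74 (1.11 to 2.46, exact conditional interval). Ccl4, a closely related inflammatory chemokine, had 46 UMIs (38.2 CPM) in 16 members and 126 UMIs (117 CPM) in 26 members, a log2 ratio of 1.60 (1.12 to 2.13). For both genes the ratio was larger without the top members, at 1.98 and 1.96, and smaller without the members marked by other lists, at 1.09 and 1.29. With the limit on C1q at 1000 CPM the ratio of Ccl4 was 0.83, under 2-fold. Over all alternatives it ran from 0.83 to 3.18 for Ccl4 and from 1.09 to 4.33 for Ccl3.

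In the class comparison Ccl4 was higher in sGC ∆PC in cDC1-like members, at 42.7 and 125 CPM, and in cDC2-like members, at 44.2 and 146 CPM. In barcodes with cancer cell markers, 1.44% in sGC Ctr and 2.12% in sGC ∆PC had a Ccl3 UMI at 1000 UMIs, against 3.85% and 6.90% of members. For Ccl4 these shares were 1.10% and 1.88% in cancer marker barcodes against 2.31% and 9.48% of members, from medians of 49073 and 14163 UMIs before thinning in the former. Outside the members both genes were also higher in sGC ∆PC, with log2 ratios of 0.59 and 0.39. The part of free RNA in the difference was not tested.

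Cxcl10, a ligand of CXCR3 that interferon gamma induces, had 62 UMIs (51.5 CPM) in 10 sGC Ctr members and 155 UMIs (144 CPM) in 15 sGC ∆PC members, a log2 ratio of 1.47 (1.05 to 1.93) and of 1.21 without the top members. In the other barcodes the log2 ratio of Cxcl10 was 0.47. In the members it was under 2-fold after thinning to 1000 UMIs, at 0.54, and by the mean of barcode levels, at 0.74. Cxcl9, another ligand of CXCR3, ran the other way, at 418 and 310 CPM, a log2 ratio of -0.43, although its UMIs were found in 20 sGC Ctr and 35 sGC ∆PC members. Its direction turned without the members over 20000 UMIs, to 0.0070, and without those with 2 UMIs of another cell type's list, to 0.74. Ccl5, which attracts T cells, had 135 and 257 UMIs, but 203 of the 257 lay in 1 member, and its log2 ratio of 1.09 became -0.14 without the top members. Cxcl2, which attracts neutrophils, was at 203 and 353 CPM (0.80), and Cxcl16, the ligand of CXCR6, at 271 and 316 CPM (0.22). Ccl22 was at 152 and 251 CPM (0.72), found in 33 sGC Ctr members but in 24 sGC ∆PC members. Its ratio was -0.09 with class II of at least 8000 CPM, 1.12 without the members marked by other lists and 1.36 with C1q under 200 CPM. In mature members alone Ccl22 was at 1012 and 2179 CPM, in 11 of 17 and 14 of 17. Ccl22 is itself a gene of the mature class list. Ccl17 differed little over all members, at 193 and 231 CPM (0.26), and its ratio was -1.37 without the members with 2 UMIs of another list.

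Cxcr4, the receptor for CXCL12, was the only one of 7 chemokine receptors with enough UMIs that was 2-fold higher, against 0.767% of all genes. It had 24 UMIs in 20 of 130 sGC Ctr members, at most 2 in any, and 59 UMIs in 32 of 116 sGC ∆PC members, at most 9 in any. Its log2 ratio was 1.44 (0.75 to 2.21), 1.33 without the top members and 1.43 without the members marked by other lists at 10 UMIs. With a mark of 2 UMIs, which left 29 and 23 members, it was 0.22. In cDC2-like members it went from 22.1 to 80.4 CPM. In all other barcodes Cxcr4 was higher in sGC ∆PC as well, with a log2 ratio of 0.83. Ccr2 was at 251 and 232 CPM (-0.11), and Ccr7, a rule gene, at 217 and 161 CPM (-0.42). The receptor list as a whole had a median of -0.11, with 2 genes higher and 5 lower, against 52% and 48% of all genes. Without the members marked by other lists its median was -0.18.

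**Figure D4:**
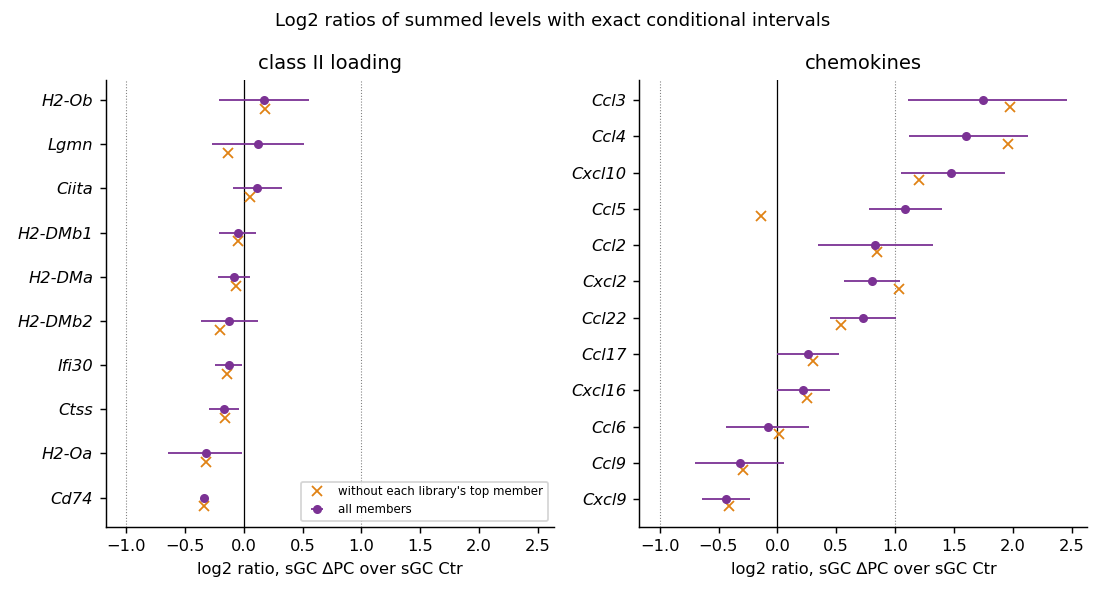
Log2 ratios of summed levels (sGC ∆PC over sGC Ctr) in members for the genes of class II loading (left) and the chemokines (right) with at least 50 UMIs, with exact conditional intervals, and crosses for the ratio without each library's top member. Class II loading genes lie between -0.34 and 0.17, 4 chemokines lie at or beyond 1, and the cross of Ccl5 falls at -0.14.

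H2-Aa, H2-Ab1, H2-Eb1 and Cd74 had log2 ratios below 0 in the members and above 0 in the other barcodes, all under 2-fold. H2-Aa was at 8386 and 7212 CPM, H2-Ab1 at 9056 and 7558 CPM and H2-Eb1 at 8056 and 6913 CPM, with log2 ratios of -0.22, -0.26 and -0.22. These are rule genes, and the median member had 26402 CPM of the 3 together in sGC Ctr and 20151 CPM in sGC ∆PC. Cd74, which the rule did not use but which follows the same regulator, had a log2 ratio of -0.34 (-0.37 to -0.30). In all other quality-passed barcodes the log2 ratio of Cd74 was 0.87, and those of H2-Aa, H2-Ab1 and H2-Eb1 were 0.93, 0.90 and 0.93. In the C1q-high class II barcodes, chosen by the same class II minimum, these genes were lower in sGC ∆PC too, with Cd74 at 11117 and 9804 CPM and the 3 rule genes together at 13385 and 12364 CPM. Of 10 genes of class II loading 7 were lower and 3 higher, none by 2-fold, against 48% lower and 52% higher over all genes. Their median was -0.10, against 0.02 over all genes. H2-DMa was at 818 and 774 CPM (-0.08), and Ifi30, the thiol reductase of the loading compartment, at 1129 and 1032 CPM (-0.13). Ctss, the protease that trims the invariant chain, was at 937 and 834 CPM (-0.17). Ciita had a log2 ratio of 0.11 with an interval of -0.10 to 0.32, which includes 0. By class the log2 ratio of Cd74 was -0.29 in cDC1-like, -0.33 in cDC2-like and -0.50 in mature members.

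The medians of class I presentation, costimulation and checkpoint genes were 0.12 to 0.13, against 0.02 over all genes, of which 52% were higher. Of 12 class I genes 8 were higher and 4 lower, with a median of 0.13. B2m, the light chain of class I, was at 1305 and 1283 CPM (-0.02) and H2-D1 at 1299 and 1277 CPM (-0.03). Psmb8, a subunit of the immunoproteasome, was at 893 and 993 CPM (0.15). Of 8 costimulatory genes 7 were higher, by less than 2-fold each, and their median was 0.12. Cd83, a marker of activated dendritic cells, was the exception, at 213 and 172 CPM (-0.31), and Cd86, the ligand of CD28, was at 145 and 159 CPM (0.13). Of 8 checkpoint genes 6 were higher, and their median was 0.12. Cd274, which encodes PD-L1, was at 55.6 and 90.9 CPM, a log2 ratio of 0.70 (0.25 to 1.18) with UMIs in 34 of 130 and 42 of 116 members. Il4i1, an amino acid oxidase of mature cells, was at 108 and 87.2 CPM (-0.31). Il1b, which encodes interleukin-1 beta, was the most abundant cytokine at 1292 and 1196 CPM (-0.11). By class Il1b was at 174 and 478 CPM in cDC1-like members and at 1811 and 1532 CPM in cDC2-like members.

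All 7 genes of the interferon gamma list with enough UMIs were higher in sGC ∆PC, against 52% of all genes, and 1 of them by 2-fold, against 0.767%, with a median log2 ratio of 0.40. The one was Iigp1, an immunity-related GTPase, with 28 UMIs in 7 members and 61 UMIs in 13 members, a log2 ratio of 1.27 (0.62 to 1.98), and of 0.93 without the top members. Ifngr1, a receptor chain for interferon gamma, was at 242 and 278 CPM (0.20), and Gbp2, a guanylate-binding protein, at 65.6 and 89.9 CPM (0.45). In the other barcodes the log2 ratio of Gbp2 was 0.68, larger than in the members, and that of Iigp1 was 0.81. The interferon gamma list summed to 629 and 820 CPM in members and to 140 and 177 CPM in the other barcodes. Of 8 type I interferon genes 6 were higher, none by 2-fold, with a median of 0.44. This list summed to 701 and 747 CPM in members and to 200 and 230 CPM in the other barcodes. In the C1q-high class II barcodes it was at 624 and 511 CPM. Bst2, or tetherin, was at 188 and 218 CPM (0.22), and Isg15, a ubiquitin-like modifier, at 235 and 162 CPM (-0.53), with 110 of its 283 sGC Ctr UMIs in 1 member. Ifi202b, which interferons induce, had 14 and 37 UMIs in 7 and 14 members (1.53), and 1.25 in the other barcodes.

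Of 13 cell cycle genes 11 were higher, against 52% of all genes, with a median of 0.32, and of 0.22 without the members marked by other lists. Birc5, or survivin, which acts in chromosome segregation, had 36 UMIs in 16 members and 71 UMIs in 21 members, a log2 ratio of 1.13 (0.54 to 1.76) and of 0.98 without the marked members, which left no gene of the list 2-fold apart. Hmgb2, a chromatin protein, was at 276 and 412 CPM (0.58) and Tubb5, a tubulin, at 517 and 538 CPM (0.06). Pclaf, a partner of the replication clamp PCNA, went from 53 to 125 UMIs (1.39), mainly in cDC1-like members, where it was at 132 and 359 CPM. With the 4 sGC Ctr and 6 sGC ∆PC members over 20000 UMIs left out, the ratio of Pclaf was -0.75. Plet1, a surface protein anchored by lipid, had 97 UMIs in 20 members and 219 UMIs in 29 members, a log2 ratio of 1.33 (0.98 to 1.69), of 1.31 without the top members and of 0.93 after thinning. In cDC1-like members it was at 227 and 613 CPM, in 14 of 23 and 18 of 21, and in cDC2-like members at 23.6 and 16.8 CPM. In the other barcodes of the libraries Plet1 had a log2 ratio of 0.08.

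No gene of the cDC2 list was 2-fold apart over all members, but Cd209a (-1.89) and Mgl2 (-1.29) were among the 29 and 23 members left without 2 UMIs of another list. Of the 6 with at least 50 UMIs, 5 had log2 ratios below 0, against 48% of all genes, with a median of -0.52, and of -0.41 without the members marked by other lists. Cd209a, a rule gene, was at 434 and 225 CPM (-0.94), with UMIs in 67 of 130 and 52 of 116 members. Mgl2 was at 468 and 328 CPM (-0.51), in 58 and 47 members, and Clec10a at 149 and 103 CPM (-0.54). As these genes also make the class, their lower sums and the smaller cDC2-like share are the same observation. Of the cDC1 list 3 genes were higher and 3 lower, with a median of -0.01, and Wdfy4, which cDC1 need for cross-presentation, was at 168 and 176 CPM. Of the mature list 2 were higher and 3 lower, with a median of -0.31, and Fscn1, which bundles actin in dendrites, was at 68.1 and 72.3 CPM.

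Over all members, the other groups had medians near that of all genes. Transcription factors had a median of 0.16 over 15 genes, with Irf8 at 531 and 612 CPM (0.20), Spi1, the myeloid factor PU.1, at 483 and 412 CPM (-0.23) and Id2, which cDC1 need to develop, at 323 and 398 CPM (0.30). Hypoxia and glycolysis genes had a median of -0.12 over 13 genes, with Gapdh at 2593 and 2437 CPM (-0.09). Immediate early and heat shock genes had a median of 0.01 over 13 genes, with Junb at 1124 and 959 CPM (-0.23). Lysosome and uptake genes had a median of 0.09 over 14 genes, but of 0.27 without the members marked by other lists. They were led by Fcer1g, the signaling chain of Fc receptors, at 1140 and 1045 CPM (-0.13). Cytoskeleton and migration genes had a median of 0.05 over 15 genes, growth factor receptors of -0.01 over 8, and pattern receptors of 0.04 over 8.

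**Figure D5:**
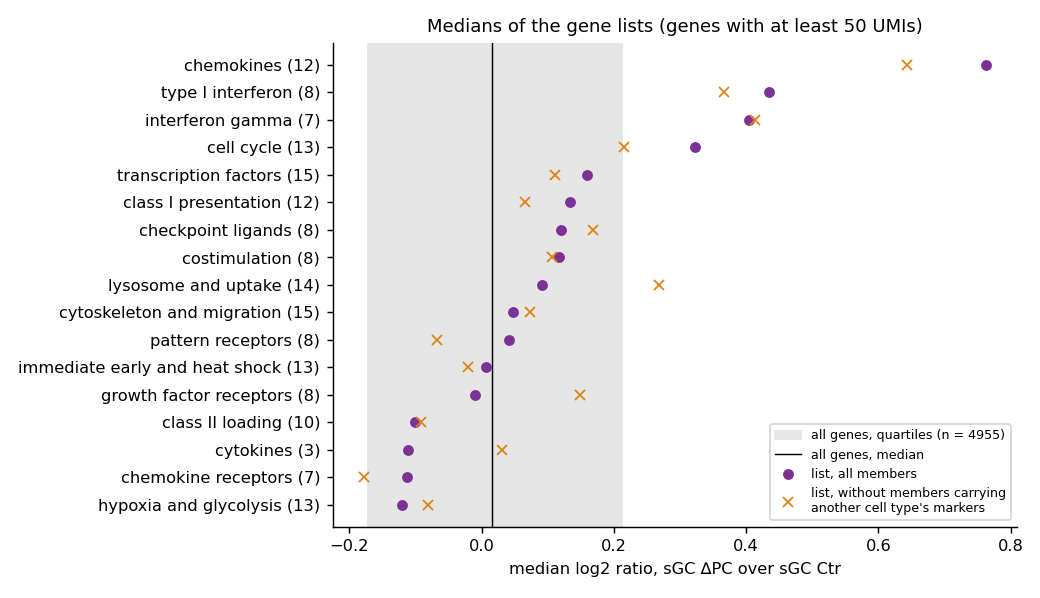
Median log2 ratio (sGC ∆PC over sGC Ctr) of each list of genes by function in members (marker and class lists are not drawn), with the number of genes in brackets, for all members (circles) and without the members that carried another cell type's markers (crosses). The grey band spans the quartiles of all 4955 single genes, -0.17 to 0.21. The chemokines, both interferon lists, the cell cycle list and the cross of lysosome and uptake lie to its right. The cross of chemokine receptors, at -0.18, lies to its left.

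Gm42418 overlaps ribosomal RNA sequence and is often read as a sign of how much ribosomal RNA a library holds. It had 12594 UMIs in sGC Ctr members and 26055 UMIs in sGC ∆PC members, or 10454 and 24157 CPM, a log2 ratio of 1.21. It was found in every member, at most 235 and 427 UMIs in any. In the other barcodes its log2 ratio was 1.70, larger than in the members.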

How the data were processed

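Single-cell suspensions of LLC tumors were made into 1 library per group. The submitters' processing notes name Cell Ranger 6.1.1 and mm10, and the authors deposited UMI counts, whole numbers per gene and barcode, without normalization. Their quality control and cluster labels were not used here.

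Barcodes were chosen by the rule stated in the results, with CPM taken within a barcode. No doublet caller was run, and members with 10 or more UMIs of another cell type's list were left out as an alternative. Counts were summed over members and scaled to CPM. Log2 ratios had 0.5 counts added to each sum, and a gene needed 50 UMIs over the 2 libraries. Intervals were exact Clopper-Pearson, Poisson and conditional binomial, and floors were 3 counts, all for counting error only. With 1 library per group no test was made, and at least 2-fold served as the threshold. Thinning drew 1000 UMIs per barcode without replacement. The members and gene lists were chosen with earlier results of these data known. Of the symbols on the lists, 310 of 313 were in the files. Genes named were the 12 farthest each way outside the rule, the 3 most abundant of each list and those 2-fold apart, the rule and class genes, and the 15 that stood highest over other barcodes. Others, such as H2-DMa, H2-Ob, Mertk, Apoe, Psmb8, Gm42418 and genes that describe a class, were named after their values were seen, and a few genes that the rule names are not reported here. Python 3.11.15, numpy 2.4.6, scipy 1.17.1 and pandas 2.3.3 were used, and the steps were tested on simulated data. Of the alternatives, 20 were listed with earlier results known and 2 were added after seeing the data.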

Additional observations from a re-analysis of the deposited data

How the results depend on the processing

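No paired analysis was possible because each group has 1 library. The share of members among all quality-passed barcodes was lower in sGC ∆PC under all limits tried, and the shares by other denominators were not recomputed. In sGC Ctr and then sGC ∆PC they came to 1.51% and 0.835% with mitochondrial UMIs under 5%, 0.782% and 0.413% with cancer genes under 200 CPM, and 0.236% and 0.109% (29 and 23 members) without members with 2 UMIs of another list. In sGC ∆PC the share was 0.693% with cancer genes under 1000 CPM and 0.403% with at least 2 UMIs of dendritic genes. The cDC2-like share in sGC Ctr was 40.6% with cancer genes under 200 CPM, 51.7% without members with 2 UMIs of another list and 43.8% with a class minimum of 1 UMI, which gave 40.5% cDC2-like and 15.5% cDC1-like in sGC ∆PC. The cDC1-like share was 3.01% in sGC ∆PC with C1q under 1000 CPM, 2.73% there without members over 20000 UMIs, and 3.45% in sGC Ctr and 0 in sGC ∆PC without members with 2 UMIs of another list. The natural killer list stood at 444 and 400.1 CPM in that last setting, at 616 CPM in sGC ∆PC without members over 20000 UMIs, and in sGC Ctr at 659 CPM by the mean of barcodes and 715 CPM after thinning.

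The 38 genes at least 2-fold higher became 67 with cancer genes under 1000 CPM, 10 without members with 2 UMIs of another list, 3 after thinning, 200 with a minimum of 20 UMIs and 1807 with 1 UMI. The 41 lower became 19 with mitochondrial UMIs under 5%, 14 with class II of at least 8000 CPM, 25 without members with 2 UMIs of another list, 26 without members over 20000 UMIs, 6 after thinning, 169 and 1816 with a minimum of 20 UMIs and 1 UMI, and 18 without members with 10 UMIs of another list. Without each gene's top members the counts were 39 and 32.

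Single-gene ratios stayed within their interval in 625 of 794 comparisons over 38 genes, moved outside it in 117, and changed sign in 52 for genes at least 2-fold apart. For genes under 2-fold apart the sign changed in 5, for Cxcl9 (0.74 and 0.0070), Ccl17 (-1.37), Ccl22 (-0.09) and Plac8 (-0.11). Without the gene's top members, the log2 ratio was 0.13 for Abi3bp, 0.69 for Col1a1, 0.15 for Col12a1, 0.63 for Col1a2, 0.35 for Bgn, 2.25 for Postn, 0.45 for Col5a1. With mitochondrial UMIs under 5%, the log2 ratio was 0.93 for Abi3bp, 0.55 for Col1a1, 0.19 for Col12a1, 0.19 for Cpxm1, 0.54 for Col1a2, 0.015 for Sparc, 2.51 for Postn, 0.35 for Col5a1. With class II of at least 8000 CPM, the log2 ratio was 0.86 for Abi3bp, 0.78 for Col1a1, 0.12 for Col12a1, 0.12 for Cpxm1, 0.50 for Col1a2, 0.51 for Bgn, 0.24 for Sparc, 2.45 for Postn, 0.68 for Col5a1. Without members with a UMI of a short set of B cell genes that includes Cd79a and Ms4a1 (3 members in each library), the log2 ratio was -0.47 for Igkc. Without members with 2 UMIs of another list, the log2 ratio was -1.09 for Cstdc4, 1.23 for Cpxm1, 1.23 for Fbln2, 1.71 for Bgn, 0.045 for Sparc. Without members over 20000 UMIs, the log2 ratio was -0.75 for Pclaf, 0.97 for Abi3bp, 0.77 for Col1a1, 0.97 for Col12a1, 0.23 for Cpxm1, 0.23 for Fbln2, 0.73 for Col1a2, 0.62 for Bgn, 0.00302 for Sparc, 2.10 for Postn, 0.53 for Col5a1. After thinning, the log2 ratio was 1.75 for Postn. Without members with 10 UMIs of another list, the log2 ratio was -1.10 for Slpi, 0.99 for Abi3bp, 0.76 for Col1a1, 0.25 for Col12a1, 0.25 for Cpxm1, 0.85 for Col1a2, 0.88 for Bgn, 0.0703 for Sparc, 2.37 for Postn, 0.56 for Col5a1. Of the genes 2-fold apart, 8 of 38 higher and 21 of 41 lower had at least 50% of their UMIs in the library where they stood higher in 1 member, so that the number of members limits these ratios as well as depth.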

Other observations

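Among the 125 sGC Ctr and 106 sGC ∆PC members without another cell type's markers, some further genes stood at least 2-fold apart, and they are given here after their values were seen, with UMIs, levels and ratios over all members except where said. Hmox1, which degrades heme, had 58 UMIs in sGC Ctr and 14 UMIs in sGC ∆PC in the members without that mark. Of those in sGC Ctr, 33 lay in 1 member. Phf11a had 45 and 16 UMIs, in 30 of 130 and 11 of 116, with a log2 ratio of -1.30 (-2.25 to -0.48). Gm8797 had 79 UMIs in 53 members and 27 UMIs in 19 members, with a log2 ratio of -1.37. Creld2, a protein of the endoplasmic reticulum, had 60 UMIs in 38 members and 25 UMIs in 17 members (-1.09). Dusp2, a phosphatase of MAP kinases, was at 110 and 54.7 CPM, in 44 and 26 members, with a log2 ratio just under 2-fold over all members (-0.996) and of -1.13 without the marked ones. Dusp6, another of that family, went the other way, with 24 UMIs in 19 members and 46 UMIs in 34 members (1.08, and 0.94 without the top members). Cish, a feedback inhibitor of cytokine signaling, had 30 UMIs in 18 members and 66 UMIs in 30 members, with a log2 ratio of 1.28 (0.65 to 1.97), 1.36 without the top members and 1.16 without the marked members. Hilpda, a lipid droplet protein, was at 74.7 and 161 CPM, in 28 and 35 members (1.11, and 0.96 without the top members), while the list of hypoxia and glycolysis genes had a median of -0.12.

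Fcgr1, the high affinity receptor for IgG, was at 49.0 and 83.4 CPM, with UMIs in 31 of 130 and 47 of 116 members (0.76). Ccl2, the ligand of CCR2, was at 49.0 and 87.2 CPM, with UMIs in 45 and 62 members (0.83), at most 4 and 6 UMIs in any. The same gene had a log2 ratio of 0.41 in the other barcodes.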
